A study of Mus musculus with 6 samples.

Results

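The genes of DNA replication and S phase were examined in the mouse stomach corpus, whose glands make acid and pepsinogen. The set holds 43 genes, chosen by name from the 18988 rows of the deposited expression table, and all 43 were found there. RNA sequencing had been done on the corpus of 6 mice of the C57BL/6 background, with 1 mouse per library. Replicates 1 to 3 carried the genotype Ras;APC FF, which the labels call the control, and replicates 4 to 6 carried PGC;Ras;APC FF. Both groups thus share the Ras and APC FF components, and the comparison asks what differs in the corpus when PGC is added. What PGC and FF stand for and which cells they act in is not spelled out, and the sources used here give no ages or time points. Values are FPKM, read fragments scaled to gene length and library size.

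A cell copies its genome in steps, and the genes fall into roles along them. In G1, the origin recognition complex (Orc genes) with Cdc6 and Cdt1 loads the MCM helicase ring (Mcm2 to Mcm7) onto origins. Cyclin E with its kinase, and the factors Cdc45, GINS and Mcm10, then turn the ring into a moving helicase. Polymerase alpha with primase, polymerases delta and epsilon, the clamp PCNA and its loader copy the strands. After G1, geminin (Gmnn) blocks Cdt1. Many of these genes are transcribed under E2F factors as cells leave G1. In the corpus, dividing cells lie mostly in the isthmus of each gland, while mature parietal and chief cells rarely divide.

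The promoters carry the sequence feature by which replication genes are best known, so a few are shown before the values. RefSeq promoter sequences of build GRCm38.p6, 250 bases before to 50 after each start site, were matched by symbol to 34 of the 43 genes. They were searched on both strands for 4 E2F octamers, TTTCCCGC, TTTGGCGC, TTTCGCGC and TTTGCCGC. At least 1 octamer was found for 14 of the 34 genes (41.2%), against 414 of 9116 tested genes with a promoter sequence (4.54%) and 704 of all 27025 genes with one (2.6%). These 14 were Mcm3, Mcm5, Mcm6, Mcm7, Orc1, Cdc6, Cdt1, Gins3, Pola1, Pole2, Pold1, Rfc3, Lig1 and Uhrf1. A CCAAT box, searched as CCAAT on both strands (it can share an end base with an octamer), was found for 20 of the 34 (58.8%), against 42.6% of tested genes. Printed here are the 190 bases before the start site of 4 genes, with every octamer in capitals (adjoining octamers overlap and make 1 longer run). Mcm6 and Mcm5 were chosen because they carry several, Pola1 because it carries 1 and had a small change, and Pcna because it is the most abundant gene of the set and carries none in this window.
Mcm6 (chr1:128359706-128359895, minus strand): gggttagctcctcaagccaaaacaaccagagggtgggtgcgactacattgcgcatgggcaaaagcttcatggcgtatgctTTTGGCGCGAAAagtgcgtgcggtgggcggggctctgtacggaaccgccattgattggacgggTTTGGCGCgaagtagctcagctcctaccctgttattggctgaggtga
Mcm5 (chr8:75109319-75109508, plus strand): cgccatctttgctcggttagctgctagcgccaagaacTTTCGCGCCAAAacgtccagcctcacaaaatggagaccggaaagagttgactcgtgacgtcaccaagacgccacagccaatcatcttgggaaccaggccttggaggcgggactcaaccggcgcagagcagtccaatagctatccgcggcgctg
Pola1 (chrX:93632156-93632345, minus strand): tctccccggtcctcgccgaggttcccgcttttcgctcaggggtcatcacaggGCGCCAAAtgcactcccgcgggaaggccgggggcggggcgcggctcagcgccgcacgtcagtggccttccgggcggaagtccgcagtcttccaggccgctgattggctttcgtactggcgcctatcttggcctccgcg
Pcna (chr2:132253181-132253370, minus strand): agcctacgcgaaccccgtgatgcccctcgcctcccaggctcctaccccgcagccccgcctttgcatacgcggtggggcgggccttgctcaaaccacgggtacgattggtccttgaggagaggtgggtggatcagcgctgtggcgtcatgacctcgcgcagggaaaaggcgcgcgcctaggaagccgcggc
In Mcm6 the octamers begin 110, 106 and 47 bases before the start site, in Mcm5 153 and 149 bases before it, and in Pola1 138 bases before it. A match is a description of these letters and does not show binding. The octamer did not sort the genes by their change: the median log2 change was 0.86 for the 13 tested genes with it (0.13 to 1.31) and 0.80 for the 20 tested genes without (0.45 to 1.07).

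A few facts of the whole series touch the values that follow. The tissue matched its label: Pgc (pepsinogen C of chief cells) and Atp4b (a proton pump subunit of parietal cells) were read at 16059 FPKM or more and at 723 or more in every library. Pgc, Clps and Tff1 together held 38.0% to 43.5% of summed FPKM in the control mice, 31.4% and 31.0% in replicates 4 and 5, and 14.3% in the remaining library, replicate 6. Over the 11857 tested genes the log2 change had a median of 0.26 with FPKM as deposited and -0.0034 after median-of-ratios scaling, so changes of the replication genes are also given relative to it. Replicate 6 was the highest library for 68.4% of tested genes. The Y-linked gene Eif2s3y was at 13.2 FPKM in control replicate 3 and at 0 elsewhere, and Xist was at 0 there, so that 1 control reads as male and the other libraries as female. Read numbers per library are not known.

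Replication genes stood higher in the PGC;Ras;APC FF corpus in nearly every role. Every PGC;Ras;APC FF library exceeded every control for 40 of the 43 genes, against 31.9% of all rows of the table. Among tested genes this held for 37 of 40, against 42.7%. The exceptions were Gmnn, Gins3 and Prim2. In bulk RNA, more dividing cells and more replication RNA per cell cannot be told apart. The ratio of the mean FPKM of the 2 groups ranged from 1.01 for Gmnn to 3.22 for Uhrf1, with a median of 2.03. Replicate 6 was the highest library for 41 of the 43 genes, against 57.5% of all rows, and control replicate 3 was the lowest for 30. Among the 40 tested genes, replicate 3 was the lowest library for 27, against 26.6% of tested genes.

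Of the 43 genes, 40 reached 1 FPKM in at least 3 libraries and were tested. With all 6 libraries, 0 of the 40 rose or fell by limma at an adjusted p of 0.05, against 0.11% of all tested genes that rose and 0.0422% that fell. The lowest limma adjusted p among them was 0.085, shared by 25 genes. At an unadjusted limma p under 0.05, 36 of the 40 were higher and 0 lower, against 31.8% of all tested genes higher and 3.63% lower. The log2 change was positive for 40 of 40, against 80.6%. The median log2 change was 0.79, which is 0.53 above the median of all tested genes. Of the 40, 2 (Pola1 and Ccne1) passed the filter on low values only through the PGC;Ras;APC FF libraries and so had to differ. Leaving such genes out, 34 of 38 were higher at an unadjusted limma p under 0.05, against 30.9% of all genes. With no filter, all 43 could be fitted and 38 were higher at an unadjusted limma p under 0.05. Their median log2 change was 0.76, against 0.14 over all 18988 rows. The share of all rows at that p was not computed for this fit.

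The count depended on replicate 6. Without it, 25 of the same 40 genes rose by limma and 0 fell, against 8.11% of tested genes that rose and 0.961% that fell, although their median log2 change was smaller (0.60, which is 0.43 above all genes). Of the 25, Ccne1 had to differ by the filter; leaving such genes out, 24 of 38 rose, against 7.49% of all genes. With the filter on low values also taken without replicate 6, 24 of 37 rose, against 7.17%. With limma's library weights, which count replicate 6 least, 35 of 40 rose, against 29.7%, and these held all 25. Without replicate 5, 13 of 38 rose, against 3.54%, and all 13 were among those 25. Without any 1 control, or without replicate 4, 0 rose by limma. Of all tested genes, 0 rose in each fit without a control and 2 without replicate 4. At an unadjusted limma p under 0.05, 33 replication genes were higher in each of these 4 fits. Those tested were 40, 39, 40 and 37 without replicates 1, 2, 3 and 4. The share of all genes at that p was not computed for these fits. Without replicate 3, the library that reads as male, the median log2 change was 0.73.

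**Figure D1:**
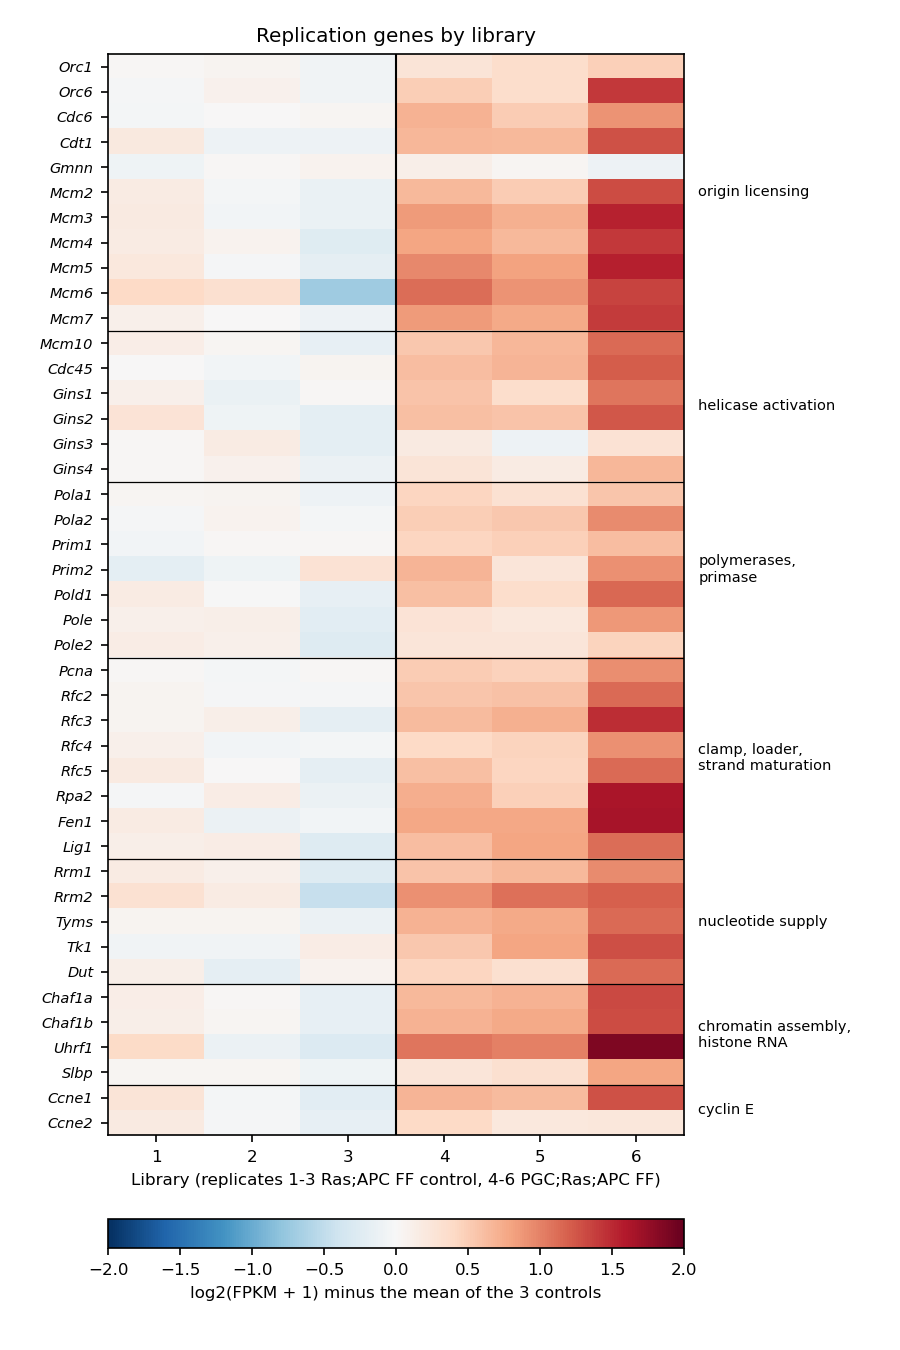
Heat map of the 43 replication genes (rows, grouped by role) in the 6 libraries (columns), coloured by log2(FPKM + 1) minus the mean of the 3 controls. Columns 4 to 6 are red for nearly all genes and deepest in replicate 6; Gmnn and Gins3 stay near white, and Mcm6 is blue in control replicate 3.

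Of the 11 genes of origin licensing, 10 were tested, 9 had an unadjusted limma p under 0.05 (31.8% of all tested genes were higher at that p, the share against which the counts of the other roles stand too), and the median log2 change was 0.90. The helicase subunits Mcm2 to Mcm7 all stood higher, with log2 changes from 0.82 (Mcm2) to 1.12 (Mcm6). Mcm7 (chr5:138164583-138172422, minus strand) was at 10.1, 9.37 and 8.64 FPKM in control replicates 1 to 3 and at 17.7, 16.6 and 26.2 in replicates 4 to 6. The groups did not overlap, and the lowest PGC;Ras;APC FF library was well above the highest control. Its means were 9.37 ± 0.73 and 20.15 ± 5.29 FPKM (SD, n = 3 each), a log2 change of 1.00 ± 0.19 (SE, limma adjusted p = 0.085). Without replicate 6 Mcm7 rose by 0.81 on the log2 scale (limma adjusted p = 0.0196), the lowest adjusted p of the 40 genes in that fit.

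Mcm6 (chr1:128331590-128359664, minus strand), whose promoter is shown above, had the widest control spread of the ring. It was at 9.86, 9.28 and 4.05 FPKM in replicates 1 to 3 and at 17.0, 14.4 and 20 in replicates 4 to 6. The low control was replicate 3, and the other two controls agreed closely. Its log2 change was 1.12 ± 0.29 (SE, limma adjusted p = 0.085) over all libraries and 0.77 without replicate 3 (limma adjusted p = 0.18). It was the 1 subunit of the 6 that did not pass without replicate 6 (log2 change 1.01, limma adjusted p = 0.078). Per length, the subunits differed in level: control means ran from 3.41 FPKM (Mcm4) to 9.37 (Mcm7). The ratio of Mcm7 to Mcm4, chosen after its values were seen, was 2.79 ± 0.34 in the control mice and 2.66 ± 0.19 in the PGC;Ras;APC FF mice (SD, n = 3 each), a difference smaller than the spread.

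Among the loaders and their inhibitor, the inhibitor had the smallest change. Cdt1, which loads the ring, was at 4.09, 3.15 and 3.15 FPKM in the control mice and at 6.05, 5.98 and 9.69 in replicates 4 to 6 (log2 change 0.86 ± 0.20 SE, limma adjusted p = 0.085). Gmnn (chr13:24751845-24761923, minus strand), which encodes geminin, was at 10.3, 11.2 and 11.5 FPKM in the control mice and at 12.04, 11.3 and 10.1 in replicates 4 to 6. These values overlapped fully. Gmnn had the smallest log2 change of the set, 0.02 ± 0.13 (SE, limma adjusted p = 0.92), and its sign turned under median-of-ratios scaling (-0.27), quantile normalization (-0.28) and a total without the 50 most abundant genes (-0.32). The ratio of Cdt1 to Gmnn FPKM, chosen after its values were seen, was higher in each PGC;Ras;APC FF library: 0.398, 0.282 and 0.273 in the control mice and 0.503, 0.529 and 0.956 in replicates 4 to 6. Cdc6, the loading ATPase, went from 0.94 ± 0.06 to 2.16 ± 0.43 FPKM (SD, n = 3 each). Orc6, a subunit of the origin recognition complex, was at 3.07, 3.38 and 2.91 FPKM in the control mice and at 4.82, 4.23 and 9.99 in replicates 4 to 6, and did not pass without replicate 6 (limma adjusted p = 0.056). Orc1 was read at 0.13 to 0.23 FPKM in the control mice and 0.42 to 0.65 in PGC;Ras;APC FF and was too low to be tested.

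Of the 6 tested genes that turn the ring into a helicase, 4 had an unadjusted limma p under 0.05 against 31.8% of all tested genes, and the median log2 change was 0.72. Cdc45 (chr16:18780447-18811987, minus strand), which travels with the ring, was at 1.37, 1.26 and 1.45 FPKM in the control mice and at 2.63, 2.78 and 4.44 in replicates 4 to 6. The controls lay close together, and the groups did not overlap. Its log2 change was 0.84 ± 0.18 (SE, limma adjusted p = 0.085), and it rose without replicate 6 (0.65, limma adjusted p = 0.0279). Mcm10, an activation factor, behaved alike, at 1.16 to 1.66 FPKM in the control mice and 2.51 to 4.34 in the PGC;Ras;APC FF mice.

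The 4 GINS subunits, which form 1 complex, were unequal. Gins4 (chr8:23226616-23237659, minus strand) was the most abundant, at 9.45, 9.90 and 8.40 FPKM in the control mice and at 11.2, 10.5 and 15.3 in replicates 4 to 6. Replicates 4 and 5 were only slightly above the controls, and its log2 change was 0.36 ± 0.16 (SE, limma adjusted p = 0.153). Gins2 was at 1.94 to 3.06 FPKM in the control mice and 3.98 to 6.93 in the PGC;Ras;APC FF mice, with a log2 change of 0.80, and Gins1 at 2.02 to 2.56 and 3.21 to 5.91, with 0.66. Gins3 was the lowest, at 0.84, 1.03 and 0.58 FPKM in the control mice and 1.05, 0.69 and 1.21 in replicates 4 to 6. Its groups overlapped (log2 change 0.13 ± 0.16 SE, limma adjusted p = 0.56), and its sign turned when the 50 most abundant genes were left out of the total (-0.055). Neither Gins1, Gins2, Gins3 nor Gins4 passed without replicate 6.

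The enzymes that make DNA had the smallest changes of the 7 roles, with a median log2 change of 0.56 over 6 tested genes, 0.30 above all genes. Pola2 (chr19:5940542-5964202, minus strand), the accessory subunit of polymerase alpha, was at 4.01, 4.36 and 3.94 FPKM in the control mice and at 6.15, 6.44 and 8.83 in replicates 4 to 6. The groups were well apart. Its log2 change was 0.66 ± 0.16 (SE, limma adjusted p = 0.085), and it rose by 0.52 without replicate 6 (limma adjusted p = 0.0337). Prim2 (chr1:33453810-33669795, minus strand), the large primase subunit, was at 4.40, 4.84 and 6.60 FPKM in the control mice and at 9, 6.37 and 10.7 in replicates 4 to 6. Replicate 5 lay below control replicate 3, and the log2 change was 0.61 ± 0.21 (SE, limma adjusted p = 0.101). Prim1, the catalytic primase subunit, had no such overlap, at 4.35 to 4.65 and 6.46 to 7.5 FPKM, and rose without replicate 6 (limma adjusted p = 0.0398).

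The catalytic subunits were read at low levels. Pola1 was at 0.61 to 0.78 FPKM in the control mice and 1.12 to 1.52 in the PGC;Ras;APC FF mice, and Pold1 (polymerase delta) at 1.67 to 2.36 and 2.80 to 5.62. Pole (polymerase epsilon) was at 0.62, 0.63 and 0.30 FPKM in the control mice and 0.83, 0.75 and 1.74 in replicates 4 to 6, and was not tested. Pole2, its second subunit, was at 1.49 to 2.31 and 2.53 to 3.06 FPKM (log2 change 0.31 ± 0.15 SE, limma adjusted p = 0.179). Pola1, Pold1, Pole2 and Prim2 did not pass without replicate 6.

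All 8 genes of the clamp, its loader and strand maturation were tested, and all 8 had an unadjusted limma p under 0.05, with a median log2 change of 0.80. Pcna (chr2:132249162-132253314, minus strand), the sliding clamp, was the most abundant of the 43 genes, at 40.4, 38.4 and 40.1 FPKM in the control mice and at 56.7, 55.1 and 76.3 in replicates 4 to 6. Its controls were among the tightest of the set, and replicates 4 and 5 were nearly equal. The means were 39.6 ± 1.04 and 62.7 ± 11.8 FPKM (SD, n = 3 each), a log2 change of 0.63 ± 0.16 (SE, limma adjusted p = 0.085), and Pcna rose by 0.49 without replicate 6 (limma adjusted p = 0.0363). Lig1 (chr7:13277283-13311433, plus strand), the ligase that seals Okazaki fragments, was at 5.61, 5.78 and 4.08 FPKM in the control mice and at 8.41, 9.50 and 12.2 in replicates 4 to 6. Its groups were apart as well (log2 change 0.84 ± 0.18 SE, limma adjusted p = 0.085), and it rose without replicate 6 (limma adjusted p = 0.0384).

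Fen1, the flap nuclease that trims Okazaki fragments, and Rpa2, a subunit of the protein that coats single-stranded DNA, stood far higher in replicate 6 than in replicates 4 and 5. Fen1 was at 3.64, 2.82 and 2.95 FPKM in the control mice and 6.07, 6.05 and 11.95 in replicates 4 to 6. Rpa2 was at 2.19, 2.58 and 1.97 FPKM in the control mice and 4.37, 3.49 and 9.07 in replicates 4 to 6. Replicate 6 alone was thus 3.81 and 4.04 times the control mean, while replicates 4 and 5 averaged 1.93 and 1.75 times it. Both rose without replicate 6 (limma adjusted p = 0.026 and 0.0405). The clamp loader genes Rfc2, Rfc3, Rfc4 and Rfc5 had log2 changes of 0.76, 0.94, 0.58 and 0.72. Rfc2 and Rfc3 rose without replicate 6, and Rfc4 and Rfc5 did not pass (limma adjusted p = 0.055 and 0.054).

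The 5 genes that make DNA precursors all had an unadjusted limma p under 0.05, with a median log2 change of 0.86. Tyms (chr5:30058202-30073617, minus strand), which makes thymidylate, was at 4.17, 4.17 and 3.57 FPKM in the control mice and at 7.07, 7.39 and 9.83 in replicates 4 to 6. The lowest PGC;Ras;APC FF library was far above the highest control, and Tyms had the smallest unadjusted limma p of the 40 genes (log2 change 0.86 ± 0.15 SE, limma adjusted p = 0.085). It rose by 0.73 without replicate 6 (limma adjusted p = 0.0242). Tk1 (chr11:117815526-117826092, minus strand), the thymidine kinase of the salvage route, was at 6.97, 6.98 and 8.26 FPKM in the control mice and at 11.2, 13.5 and 19.5 in replicates 4 to 6. It rose without replicate 6 too (0.67, limma adjusted p = 0.0313). Dut, which removes dUTP, was at 3.47 to 4.47 and 5.30 to 10.1 FPKM and did not pass (limma adjusted p = 0.108, and 0.095 without replicate 6).

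Ribonucleotide reductase gave a contrast between its small subunits. Rrm2, the S-phase subunit, was at 4.71, 4.2 and 2.35 FPKM in the control mice and at 7.74, 8.89 and 9.59 in replicates 4 to 6 (log2 change 1.07 ± 0.21 SE, limma adjusted p = 0.085). Replicate 6 stood out less here than in most genes, and the low control was again replicate 3. Rrm2b, the p53-inducible subunit that serves cells outside S phase and is no member of the set, was at 2.93, 3.31 and 3.31 FPKM in the control mice and 2.72, 2.44 and 2.77 in replicates 4 to 6 (log2 change -0.20 ± 0.12 SE, limma adjusted p = 0.253). The ratio of Rrm2 to Rrm2b, chosen after its values were seen, was 0.710 to 1.61 in the control mice and 2.85 to 3.64 in the PGC;Ras;APC FF mice. Rrm1, the large subunit, was at 5.41 to 7.60 and 10.5 to 13.8 FPKM.

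Among the 4 genes of chromatin assembly and histone RNA the median log2 change was 0.90. Uhrf1 (chr17:56303321-56323486, plus strand), which brings DNA methylation to newly copied strands, had the largest log2 change of the set. It was at 3.12, 1.91 and 1.60 FPKM in the control mice and at 5.62, 5.30 and 10.4 in replicates 4 to 6. The groups did not overlap, though the controls differed among themselves by nearly as much in proportion as replicates 4 to 6 did. The means were 2.21 ± 0.80 and 7.11 ± 2.87 FPKM (SD, n = 3 each), a log2 change of 1.31 ± 0.27 (SE, limma adjusted p = 0.085), and Uhrf1 rose by 1.04 without replicate 6 (limma adjusted p = 0.031). Chaf1a and Chaf1b, subunits of the assembly factor that places histones behind the fork, went from 1.14 ± 0.22 to 3.04 ± 1.11 and from 2.16 ± 0.32 to 5.05 ± 1.48 FPKM (SD, n = 3 each), and both rose without replicate 6. Slbp (chr5:33634952-33652574, minus strand), which binds histone mRNA, was at 8.85, 8.81 and 8.02 FPKM in the control mice and at 10.2, 10.95 and 15.5 in replicates 4 to 6. Replicates 4 and 5 were close to the controls, and its log2 change was 0.45 ± 0.17 (SE, limma adjusted p = 0.115).

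Cyclin E, which with its kinase starts S phase, is encoded by Ccne1 and Ccne2. Ccne1 (chr7:38097984-38107534, minus strand) was at 0.99, 0.62 and 0.45 FPKM in the control mice and at 1.67, 1.59 and 3.06 in replicates 4 to 6. All controls were under 1 FPKM, so the filter on low values required the groups to differ. Its log2 change was 0.86 ± 0.21 (SE, limma adjusted p = 0.085). Its paralogue Ccne2 was at 0.76, 0.53 and 0.39 FPKM in the control mice and at 1.05, 0.79 and 0.81 in replicates 4 to 6, and was not tested. Replicate 6 was the highest library for Ccne1 but not for Ccne2, and the ratio of Ccne1 to Ccne2, chosen after its values were seen, was 1.15 to 1.30 in controls and 1.59, 2.01 and 3.78 in replicates 4 to 6.

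**Figure D2:**
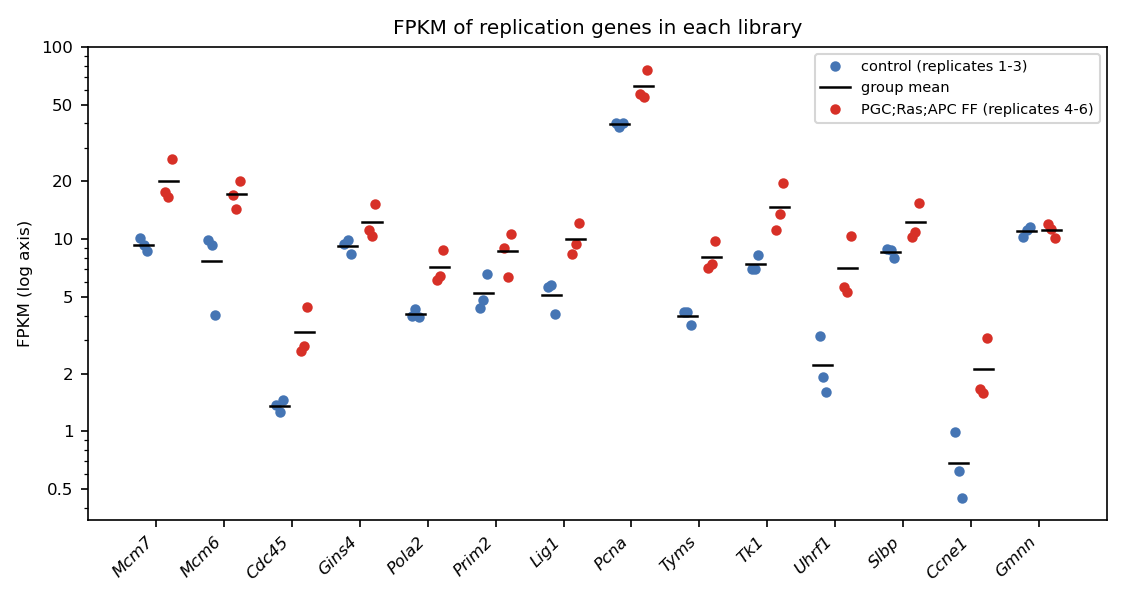
FPKM on a log axis (each point 1 library, black bar the group mean) for the 14 replication genes chosen by p, abundance and size of change, controls in blue and PGC;Ras;APC FF in red. The red points lie above the blue ones for 12 of the genes; they overlap in Prim2 and in Gmnn, and Pcna is the most abundant.

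**Figure D3:**
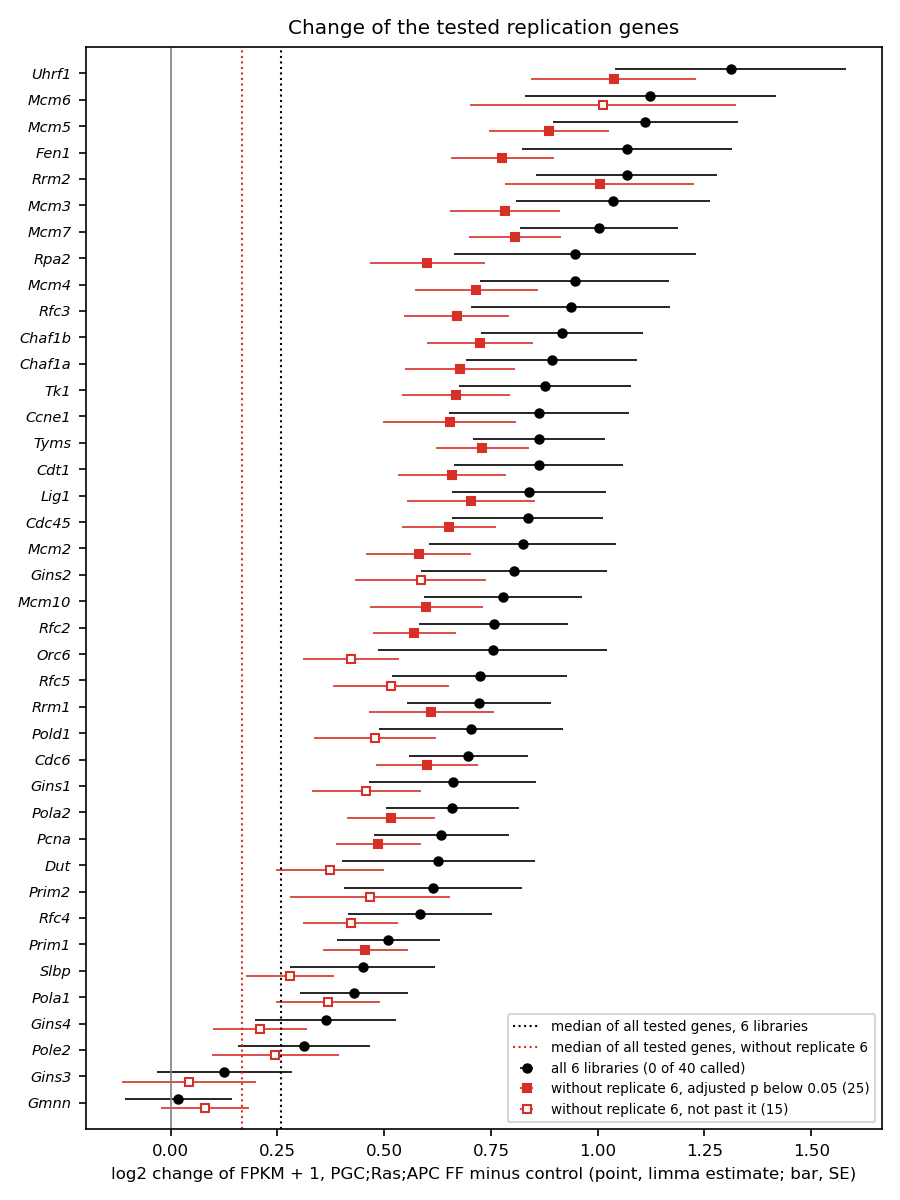
Log2 change of FPKM + 1 (points, bars SE) of the 40 tested genes with all 6 libraries (black) and without replicate 6 (red, filled where limma's adjusted p was below 0.05), ordered by size; dotted lines mark the medians of all tested genes. Without replicate 6 most estimates are smaller, yet 25 are filled, and Gmnn and Gins3 lie left of the dotted lines.

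Other replication genes stood higher too, by less. Among 55 other genes of replication (further subunits, fork factors, nucleotide enzymes and histone chaperones), 44 were tested, 0 rose or fell by limma and 27 had an unadjusted p under 0.05, all of them higher, against 31.8% of all tested genes. Their median log2 change was 0.50, which is 0.24 above all genes, and 12 rose without replicate 6, against 8.11%. By abundance, the first was Rbbp7, a histone-binding protein. It was at 34.5, 33.9 and 31.6 FPKM in the control mice and 48.1, 43.7 and 98.1 in replicates 4 to 6 (limma adjusted p = 0.106). Rnaseh2c, of the nuclease that removes ribonucleotides from DNA, was at 21.8 to 28.95 and 29.1 to 44.4 FPKM, and Dtymk, which makes dTDP, at 16.2 to 20.5 and 24.5 to 40.5. Under median-of-ratios scaling 36 of the 44 had a positive log2 change (median 0.23).

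Mitosis genes had changes of like size but, on average, another order of replicates 4 and 5. Of 29 genes, 27 were tested, 0 rose or fell by limma, 26 had an unadjusted p under 0.05 and were higher (31.8% of all tested genes), and the median log2 change was 0.76. Without replicate 6, 6 of 27 mitosis genes rose, against 8.11%. Leaving out genes that reached the filter only through the PGC;Ras;APC FF mice, 26 of 43 other replication genes and 24 of 25 mitosis genes had an unadjusted limma p under 0.05, against 30.9%. Averaged over tested genes on the log2(FPKM + 1) scale, replication genes stood 0.61, 0.55 and 1.11 above the control mean in replicates 4, 5 and 6, and mitosis genes 0.42, 0.70 and 1.14. Replicates 4 and 5 were thus close in replication genes and apart in mitosis genes. By gene, replicate 4 was above replicate 5 for 26 of the 43 replication genes and below it for 16. Nucleotide supply (0.63 in replicate 4, 0.72 in replicate 5) and chromatin assembly with histone RNA (0.66 and 0.69) had the order of the mitosis genes. The other roles did not. The 3 mitosis genes highest in FPKM, Ube2c, Birc5 and Plk1, were at 26.7, 12.6 and 9.89 FPKM in replicate 4 and at 35.9, 18.5 and 13.4 in replicate 5. The mean difference between the lists was 0.18, -0.15 and -0.029 in replicates 4 to 6, against -0.12 to 0.15 in controls, so replicate 4 lay just above the control range and replicate 5 just below it. Whether the lists differ in these libraries was not tested.

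Markers of several other cell types differed between the groups as well. All 6 epithelial markers (Epcam, Cdh1, Krt8, Krt18, Krt19 and Cldn18) were higher in every PGC;Ras;APC FF library than in every control, against 42.7% of tested genes, with summed levels of 2720 to 3175 FPKM in the control mice and 4483 to 6747 in the PGC;Ras;APC FF mice. Their mean level was 0.53, 0.69 and 1.23 above the control mean in replicates 4 to 6. Replication genes minus epithelial markers gave 0.080, -0.14 and -0.12 in replicates 4 to 6, against -0.094 to 0.18 in controls. On this scale replicate 4 thus lay inside the control range and replicates 5 and 6 just below it. The scale understates changes of low genes, and the replication genes were far lower in FPKM than these markers. The order of the median log2 changes (replication, then epithelial) depended on the setting. They were 0.79 and 0.83 in the main fit and 0.60 and 0.63 without replicate 6. With 0.1 in place of 1 added to FPKM they were 0.95 and 0.83, and after median-of-ratios scaling 0.56 and 0.52. By limma 0 of the 6 rose with all libraries, against 0.11% of tested genes. At an unadjusted limma p under 0.05, 5 were higher, against 31.8%, and 3 rose without replicate 6, against 8.11%. The 9 smooth muscle markers were lower in every PGC;Ras;APC FF library, summing to 1973 to 3551 FPKM in the control mice and 891 to 1320. With all libraries 0 fell by limma, against 0.0422% of tested genes, and 9 were lower at an unadjusted limma p under 0.05, against 3.63%. Without replicate 6, 7 fell by limma, against 0.961%. Leukocyte markers (4 of 5 higher with no overlap between groups, against 42.7%) summed to 67.6 to 76.2 FPKM in the control mice and 93.6 to 197 in the PGC;Ras;APC FF mice. Markers listed as parietal, with Gif among them, summed to 7787 to 9692 FPKM in the control mice and 7864 and 8670 in replicates 4 and 5. They summed to 1741 in replicate 6, where the replication genes were highest. Gif, also counted as a chief marker, was at 1271 to 2177 FPKM in the control mice and 2890, 2382 and 558 in replicates 4 to 6. In replicates 4 and 5 it was above every control, so it raised the parietal sums there, which do not stand for parietal cells alone. Atp4b was at 4067.5 to 4614 FPKM in the control mice and 3131, 3849 and 723 in replicates 4 to 6. All 6 parietal markers had a negative log2 change with all libraries, and 3 (Atp4b, Kcnq1 and Esrrg) were lower in every PGC;Ras;APC FF library. Without replicate 6, 5 of the 6 were still negative (median -0.29), and Gif was the exception (0.58). The share of all genes that were lower in every PGC;Ras;APC FF library was not computed, for these or for the smooth muscle markers. Chief cell markers were mixed. Pgc was lower in every PGC;Ras;APC FF library (140325 to 194208 FPKM in the control mice and 16059 to 87455). Pga5 was higher in every one (30.4 to 39.9 FPKM in the control mice and 46.7 to 69.5). Of 6 chief markers tested, 2 had a positive log2 change with all libraries (median -0.20) and 5 without replicate 6 (median 0.35). All 4 mucous neck markers were higher with no overlap, against 31.9% of all rows (median log2 change 1.22 over 3 tested). Muc6 was barely apart, at 77.6 FPKM in the highest control and 77.9 in replicate 4. Of 3 tested adipocyte markers 2, Adipoq and Cfd, fell by limma with all libraries, against 0.0422% of tested genes (median -2.10). Endothelial and surface pit markers had medians of 0.022 and 0.019. The part of these shifts in the replication values was not tested.

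Markers of cell types that divide in other tissues were read at mixed levels. Among B cell markers, Ms4a1 and Pax5 were at 0.09 FPKM or lower in all 6 libraries, while Cd79a was at 0.71 to 1.02 in the control mice and 1.88 to 5.47 in the PGC;Ras;APC FF mice, and Cd79b at 0.18 to 0.40 and 0.54 to 1.18. Among red cell precursor markers, Klf1 and Gata1 were at 0.33 FPKM or lower throughout, and Epor was at 0.42 to 0.66. Tfrc, the transferrin receptor, which many dividing cells use, was at 8.56 to 10.7 FPKM in the control mice and 11.85 to 19.5 in the PGC;Ras;APC FF mice, with no overlap (log2 change 0.55, limma adjusted p = 0.103).

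**Figure D4:**
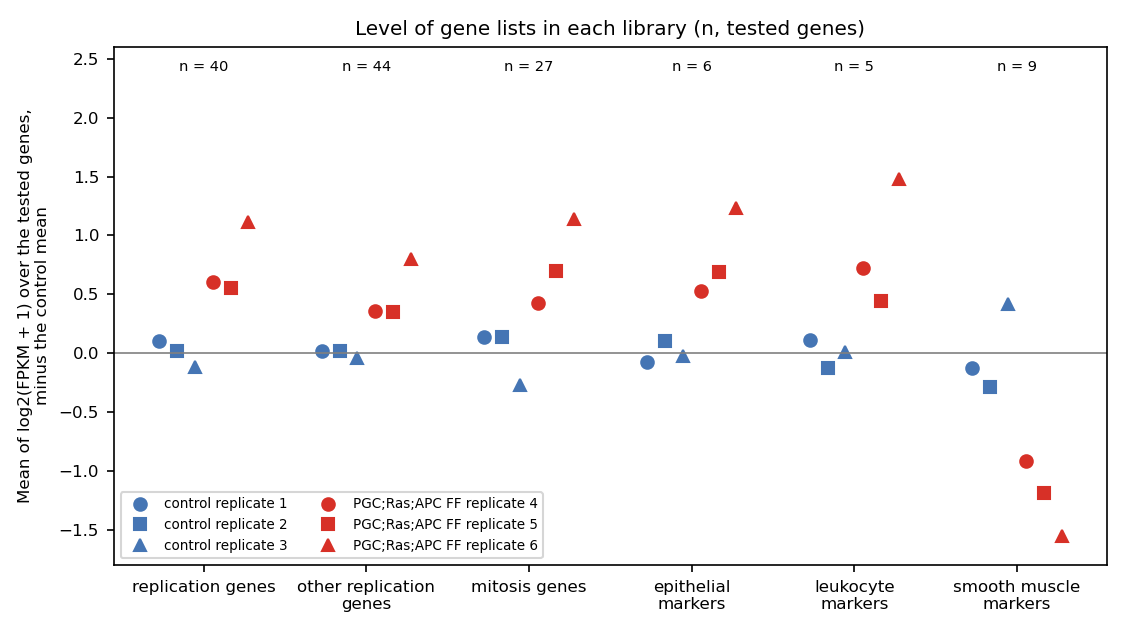
Mean log2(FPKM + 1) of the tested genes of 6 lists in each library, minus the control mean (blue controls, red PGC;Ras;APC FF, one symbol per library). Replication, mitosis and epithelial lists reach similar heights in replicate 6 (1.11, 1.14 and 1.23), leukocyte markers 1.48, and smooth muscle markers are below 0 in all red points.

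Most neighbours that share a start region had smaller changes than the replication genes beside them. In the annotation (GENCODE M21 on GRCm38), 8 of the 43 genes had a protein-coding neighbour in the table on the other strand whose start lay within 1000 bp. In the 5 pairs with both genes tested, the replication gene had the larger log2 change in all 5 (median 0.88, against 0.12 for the neighbours). Of the 40 tested replication genes, 38 were above the median of all tested genes (0.26), and the set was chosen with earlier results known. A neighbour near that median would thus have the smaller change in most pairs. Mcm7 had a log2 change of 1.00 and its neighbour Ap4m1, an adaptor complex subunit, 0.10, at 4.61 ± 0.52 and 5.05 ± 0.94 FPKM (SD, n = 3 each). Tk1 had 0.88 and Afmid, a kynurenine pathway enzyme, -0.14, and Orc6 had 0.75 and Vps35, of the retromer, 0.12. The smallest gap was between Gins1 (0.66) and Abhd12 (0.58), whose starts lie 659 bp apart. Fen1 had 1.07 and Tmem258 0.60. The remaining 3 pairs (Orc1 with Prpf38a, Mcm4 with Prkdc, Pole with Pxmp2) held an untested gene. With no filter, Orc1 had a log2 change of 0.36, smaller than that of Prpf38a (0.51), and Pole 0.45, larger than that of Pxmp2 (-0.11). Where genes overlap, reads could be shared or lost: 14 of the 43 genes overlap a protein-coding gene, and Cdt1, Gins2 and Tk1 lie wholly inside a longer gene model. For opposite strands this matters if the counting did not use strand, which the sources used here do not say. Cdt1 and Pole2 overlap a gene model on their own strand, where use of strand would not separate them. Pcna and Tyms have named pseudogene copies, so their values are uncertain to that extent.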

How the data were processed

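Total RNA of the stomach corpus was extracted on a silica column with a DNase step, and libraries were made and sequenced at BGI, per the labels' protocols. The deposited values are FPKM, computed by the authors and rounded to 2 decimals. STAR and featureCounts on mm10 are named in the submitters' processing notes; the sources used here give no versions, annotation, use of strand or step to FPKM. Groups came from the sample titles.

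FPKM are not counts, so log2(FPKM + 1) was fitted for all genes with limma 3.58.1 in R 4.3.3 (genotype as the only term, eBayes with trend, two-sided). Genes with at least 1 FPKM in at least 3 of 6 libraries were tested (11857), with Benjamini-Hochberg adjustment over all of them and a threshold of 0.05. Log2 changes understate those of low genes. An exact test of 3 against 3 mice cannot go below p = 0.1. The labels give 1 mouse per library, so p-values measure the spread between mice. The function was tested on simulated data.

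Values in every library are given for the gene with the smallest p and the most abundant gene of each role (the next where both are 1 gene), for the 3 most abundant of the other lists, and for the largest and smallest change; other genes named are further members, or were chosen after their values were seen. The members and lists were chosen with earlier results of these data known. Alternatives were another pseudocount, no filter, 3 scalings, library weights, no trend and leaving out each library. Coordinates are from GENCODE M21 (GRCm38, the assembly of mm10), promoters from RefSeq on GRCm38.p6. Some marker genes are not reported here.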

Additional observations from a re-analysis of the deposited data

How the results depend on the processing

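The count of replication genes past the threshold, 0 of 40 with all libraries, was 24 of 37 without replicate 6 (25 of 40 with the filter kept over all libraries), 13 without replicate 5 and 35 with limma's library weights, which gave replicate 6 a weight of 0.133 and stopped before convergence. It was 0 under the other 10 alternatives, so leaving out 1 library gave 0 to 24; the cause was not tested. For the other replication genes the count was 0 in the same 10, 11 without replicate 6 (12 with the filter kept), 5 without replicate 5 and 26 with library weights. The median log2 change of the replication genes stayed positive under all 14 alternatives, between 0.51 (total without the 50 most abundant genes) and 0.95 (pseudocount 0.1), and between 0.41 and 0.65 above the median of all genes. Leaving out 1 library gave 0.60 to 0.90. Signs turned for Gmnn (-0.27, -0.28 and -0.32 under median-of-ratios, quantile and total without the 50 most abundant genes, and -0.034 to 0.080 on leaving out 1 library, below 0 without replicates 1 and 4 at -0.026 and -0.034), for Ccnd3 (-0.016, -0.075 and -0.072 under the same 3 scalings) and, under the total without the 50 most abundant genes, for Gins3 (-0.055) and Cdkn1a (-0.020). No paired analysis was possible because the groups share no replicate numbers. Depth is unknown, so genes near 1 FPKM carry a counting error that cannot be given.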

Other observations

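Genes that control entry into S phase were read beside the replication genes. Of 21 such genes 19 were tested, 0 rose or fell by limma and 10 had an unadjusted p under 0.05, all higher, against 31.8% of all tested genes (median log2 change 0.52, and 0.29 after median-of-ratios scaling), with 4 that rose without replicate 6, against 8.11%. Of the 19, 2 reached the filter on low values only through the PGC;Ras;APC FF mice and so had to differ; without them 9 of 17 had such a p. The 3 most abundant were Cdkn1a, the p21 kinase inhibitor, at 85.3, 112 and 122 FPKM in the control mice and 148, 123 and 132 in replicates 4 to 6, Cdk4, the cyclin D kinase, at 52.5, 47.2 and 55.0 and at 76.4, 71.3 and 128.5, and Ccnd3, a cyclin D, at 34.4 to 51.5 and 45.1 to 62.2. Neither Cdkn1a nor Cdk4 overlapped between the groups, as held for 42.7% of tested genes. For Cdkn1a the gap was narrow, from 122 to 123 FPKM (limma adjusted p = 0.188). Cdk4 rose without replicate 6 (log2 change 0.51, limma adjusted p = 0.0406). Chosen after their values were seen, Ccnd1 was at 10.7 to 15.1 FPKM in the control mice and at 29.4, 21.4 and 61.5 in replicates 4 to 6, and E2f2, an activating E2F, at 1.41 to 2.03 and 3.08 to 4.14.

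Checkpoint and fork repair genes were mostly low. Of 17 genes 9 were tested, 0 rose or fell by limma, 5 had an unadjusted p under 0.05 on the higher side, against 31.8% of all tested genes, and 1 on the lower, against 3.63% (median log2 change 0.39). Of the 5, 2 reached the filter only through the PGC;Ras;APC FF mice and so had to differ, which leaves 3 of 7. The 3 most abundant were Wee1, the kinase that holds back mitotic entry, at 8.54, 10.7 and 7.48 FPKM in the control mice and 8.07, 7.17 and 5.33 in replicates 4 to 6, Chek2, at 2.19 to 2.54 and 3.15 to 4.78, and Atrip, at 1.91 to 2.09 and 2.49 to 3.30. Chosen after its values were seen, Blm, a helicase of fork repair, was at 3.56, 3.65 and 1.52 FPKM in the control mice and 1.79, 1.43 and 1.05 in replicates 4 to 6, against the direction of the replication genes (log2 change -0.65 ± 0.25 SE, limma adjusted p = 0.122), with control replicate 3 inside the range of the other group. Chek1, the kinase of the replication checkpoint, was at 0.30 to 0.39 FPKM in the control mice and 0.99 to 1.31 in the PGC;Ras;APC FF mice, and was not tested.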
